A study of Mus musculus with 2 samples.

Results

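A set of 10 genes used as markers of the pyramidal neurons of hippocampal areas CA2 and CA3 were read in total RNA from mouse hippocampus. The source label gives the tissue as layer of hippocampus and names no layer. The CA2 markers were Pcp4, Map3k15, Vit and Cacng5, and the CA3 markers were Bok, Iyd, Nectin3, Cpne4, Coch and Trps1. The members were taken by symbol, and they are 10 of 55536 annotated genes in the gene tables. The group was 1 set of male adult 5xFAD/CAST mice aged 8 to 10 months, a cross between the 5xFAD line and CAST mice. The 5xFAD line models amyloid disease with transgenes driven by the Thy1 promoter, which is active mainly in neurons. Mice without these transgenes were not analysed here, so no value below is an effect of the transgenes or of the cross. Each of the 2 libraries was made from 300 ng of RNA, depleted of ribosomal RNA and prepared with strand information. The labels call them biological replicates 1 and 2 but give both the same donor identifier. The standard deviations (SD) below therefore cover the spread between the 2 samples alone, which may be technical, and the p-values cover counting error.

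The pyramidal layer of the hippocampus is divided into fields along the route that signals take from the dentate gyrus. CA3 neurons receive the mossy fibres of dentate granule cells and excite each other through recurrent collaterals. CA2 is a small field between CA3 and CA1, known for its role in social memory and for synapses that resist the usual forms of long-term potentiation. A field is usually marked by enrichment rather than by exclusive expression.

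The libraries held 26128897 and 28689423 expected counts, so that 1 count was worth 0.0383 and 0.0349 CPM, a count scaled to the library total, and a count of 0 allows up to 0.115 and 0.105 CPM (3 counts; counting error only). All 8 CA1 markers, all 8 dentate granule markers and all 6 excitatory neuron markers of fixed lists reached 1 TPM in both libraries. TPM is a length-corrected share of all transcripts. This threshold does not tell the tissue, since 6 of 6 cortex, 6 of 6 thalamus and 7 of 7 meningeal fibroblast markers reached it too. So did 7 of 8 striatum markers and 2 of 8 choroid plexus markers. These 5 lists of other regions and tissues had medians below 0 in log2 ratio of replicate 2 over replicate 1, by wide margins in 3. The 8 striatum markers summed to 165 TPM in replicate 1 and 66.1 TPM in replicate 2, the 8 choroid plexus markers to 52.2 and 9.77 TPM, and the 7 meningeal fibroblast markers to 126 and 68.3 TPM. None of the genes on these 3 lists was at 0 counts in both libraries. The cortex list, at 116 and 113 TPM, had a median log2 ratio of -0.12 with 2 of 6 genes called lower in replicate 2, and the thalamus list summed to 72.2 and 69.6 TPM.

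All 10 members reached a TPM of at least 1 in both libraries, against 60.4% of annotated protein-coding genes. By alignment-free TPM 9 members did, with Map3k15 below the threshold at 0.912 and 0.973. Pcp4 was the most abundant member at 110 ± 16.9 TPM (mean ± SD, n = 2, as for every TPM mean below), and Map3k15 the least abundant at 1.08 ± 0.0707 TPM. By mean TPM the order was Pcp4, Cpne4, Trps1, Bok, Nectin3, Cacng5, Coch, Vit, Iyd and Map3k15. The 2 libraries separated most neighbours in this order, with 2 runs of exceptions. Trps1, Bok and Nectin3 had overlapping values, and so did Coch, Vit and Iyd, so the order inside each of these runs is not resolved beyond their spread. Among all protein-coding genes Pcp4 lay at percentiles 97.2 and 95.9 of TPM in replicates 1 and 2 and Cpne4 at 86.9 and 91.3. Map3k15 lay at percentiles 38.3 and 39.7.

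**Figure D1:**
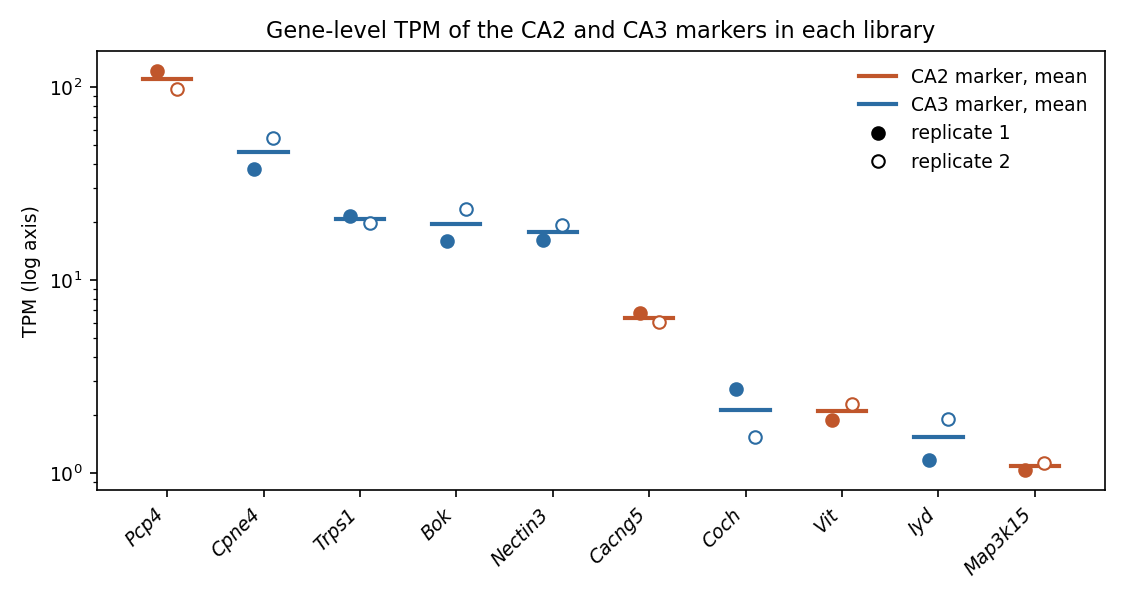
TPM of each marker gene on a log axis, with a filled point for replicate 1, an open point for replicate 2 and a bar for their mean; CA2 markers are orange and CA3 markers blue. Pcp4 lies at 122 and 98.2 TPM, above every other member in both libraries, and the remaining CA2 markers lie at or below 6.73 TPM.

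The median TPM of the 4 CA2 members was 4.30 in replicate 1 and 4.16 in replicate 2, and that of the 6 CA3 members was 16.1 and 19.6. On the log2 TPM scale the CA3 median exceeded the CA2 median by 2.18 and 2.40 (mean 2.29 ± 0.15). Both the size and the direction of this difference rest on how the few members are summarised. The mean of log2 TPM over members in place of the median gave 0.66. Leaving out Pcp4 or Cacng5 gave 3.10, and leaving out Map3k15 or Vit gave 1.48. With the arithmetic mean the order turned, at 32.9 and 26.9 TPM for the CA2 members and 15.9 and 20.1 TPM for the CA3 members in replicates 1 and 2, a log2 difference of -0.74, with Pcp4 making up most of the CA2 sum. The order also turned over the other markers of these fields, described further on, where CA3 minus CA2 was -0.48 and -0.23. No ranking of the fields can therefore be read from these genes. In bulk tissue, fewer cells of a type and less RNA per cell cannot be told apart.

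Pcp4 encodes a small protein, also called PEP-19, that binds calmodulin through an IQ motif and changes how calmodulin binds calcium. The gene lies on the plus strand of chromosome 16 at 96467606 to 96525793 (GRCm38, as are all gene coordinates below). Its leading transcript Pcp4-201 held 96.9% and 97.6% of the gene's TPM, and its coding sequence is shown because nearly all of the most abundant member's signal belongs to it. The sequence has 189 bases or 63 codons with the stop codon, it comes from the GENCODE M21 transcripts, and capitals mark the start and stop codons.
Pcp4-201: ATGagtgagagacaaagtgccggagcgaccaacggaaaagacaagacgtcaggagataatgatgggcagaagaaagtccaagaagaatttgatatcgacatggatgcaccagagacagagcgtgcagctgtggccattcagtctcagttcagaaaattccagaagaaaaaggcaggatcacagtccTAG

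Pcp4 was read with 1197 expected counts (122 TPM) in replicate 1 and 1029 (98.2 TPM) in replicate 2. It was the lower in replicate 2, with a log2 ratio of replicate 2 over replicate 1 of -0.35 and a 95% counting interval of -0.47 to -0.23, after scaling the libraries by the trimmed mean of M values (TMM). The exact two-sided binomial test compares these 2 libraries only and knows no error but counting. It gave an adjusted p of 4.2e-07 for Pcp4. With the spike-in total as the scale the log2 ratio was -0.08 (adjusted p = 0.27, exact binomial test). That scale shifts every gene by the same amount and puts the median of all tested genes at 0.27 (log2).

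Pcp4 is not restricted to CA2 in the mouse brain, and the other regions that express it include striatum and thalamus. The striatum markers, with a median log2 ratio of -1.65 and 8 of 8 called lower in replicate 2, moved in the same direction as Pcp4, and their part in its difference was not tested. The thalamus list had a median of -0.11, with 1 of 6 genes called in each direction. The cortex list had a median of -0.12, with 2 of 6 called lower. The dentate granule list, of cells inside the hippocampus, ran the other way, with a median of 0.31 and 6 of 8 called higher. The part of these lists in the difference of Pcp4 was not tested either. Among the other calmodulin-binding IQ proteins, Nrgn (neurogranin) was highest at 531 ± 73.1 TPM and Gap43, a growth cone protein, stood close to Pcp4 at 97.4 ± 9.19 TPM. Pcp4l1, the closest relative of Pcp4, was lowest at 26.5 ± 8.37 TPM and was lower in replicate 2 by the larger margin (log2 ratio -0.69). Of the 4 genes, 3 were called lower in replicate 2 and Nrgn was called higher.

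Cacng5 encodes the auxiliary AMPA receptor subunit γ-5, of the family of transmembrane proteins that set the trafficking and gating of these glutamate receptors. It lies on the minus strand of chromosome 11 at 107874605 to 107915055. It was read at 6.73 and 6.04 TPM, from 439 and 422 expected counts. The log2 ratio was -0.19, with a counting interval of -0.38 to 0.01 that reaches 0, and it did not pass the exact binomial test (adjusted p = 0.19).

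The 2 annotated transcripts of Cacng5 share a coding sequence of 828 bases and differ in their first exon and start site. In the alignment-based table Cacng5-201 held 57.5% of the gene's TPM in replicate 1 and 100% in replicate 2. Cacng5-202 held 42.5% in replicate 1, from 186 expected counts, and 0 in replicate 2. The alignment-free table put Cacng5-202 at 0.13 and 0.05 counts and at 0.03% and 0.01% of TPM in the same libraries. The split of replicate 1 thus stood in 1 of 4 readings, while the gene totals kept a steady ratio, the alignment-free count being 1.14 and 1.15 times the alignment-based count. The junctions that separate the transcripts are shown for this reason, with the last 15 bases of the first exon in capitals and the opening 15 bases of the next exon, which they share, in lower case (GENCODE M21 transcripts).
Cacng5-201: GGTCGTGACCGTGAGcccattctgcactcc
Cacng5-202: CTGACATTGAAAGAGcccattctgcactcc

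The start sites lie at 107915055 for Cacng5-201 and 107911362 for Cacng5-202. RefSeq (GRCm38.p6) lists a promoter at each, and the 250 bases before the start are printed 5′ to 3′ on the minus strand, because the tables disagreed on which start was used. GGGCGG and TATAAA were searched on both strands and matches are in capitals. The promoter of Cacng5-201, at chr11:107915056-107915305, holds 2 matches to GGGCGG, and that of Cacng5-202, at chr11:107911363-107911612, holds neither motif in this window. GGGCGG was found in 32.7% and TATAAA in 12.4% of the 32851 promoters in the table.
Cacng5-201: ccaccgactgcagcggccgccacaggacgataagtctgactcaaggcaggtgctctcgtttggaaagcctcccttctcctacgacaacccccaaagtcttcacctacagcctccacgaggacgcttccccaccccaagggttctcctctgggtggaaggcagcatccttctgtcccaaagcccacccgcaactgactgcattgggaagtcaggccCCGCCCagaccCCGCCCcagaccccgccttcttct
Cacng5-202: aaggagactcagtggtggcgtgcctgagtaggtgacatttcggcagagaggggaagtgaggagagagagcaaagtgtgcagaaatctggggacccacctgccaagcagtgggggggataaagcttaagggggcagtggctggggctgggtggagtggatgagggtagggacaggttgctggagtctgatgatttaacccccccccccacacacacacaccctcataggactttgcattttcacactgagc

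The table held promoters for 7 of the 10 members, 9 in all. GGGCGG stood in 5 of the 9 (Cacng5-201, Bok, Nectin3, Coch and the Cpne4 start nearest Cpne4-202), with 5 matches in Nectin3 and 3 in Coch. TATAAA stood in 1, that of Iyd, at position -29 from the RefSeq start at 3540274. The coding Iyd-201 starts further upstream, at 3540240, so this match lies inside its first exon. Nectin3 had 30 CpG in 250 bases, an observed-over-expected ratio of 0.978, and Pcp4 had 3, a ratio of 0.220, beside a median of 0.373 over all promoters. These matches describe letters and not sites in use.

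Cacng5 was a minor member of its family in this tissue. Cacng8 (γ-8), the main hippocampal subunit, was highest at 141 ± 20.5 TPM, followed by Cacng7 at 58.8 ± 0.721, Cacng3 at 30.4 ± 0.785, Cacng2 (stargazin) at 13.4 ± 0.481 and Cacng4 at 12.7 ± 4.82 TPM. Cacng5 at 6.39 ± 0.488 TPM came next. Cacng1, the skeletal muscle calcium channel subunit, was lowest, with 0 counts in both libraries. Of the 7 tested genes, Cacng8 was called higher in replicate 2, Cacng4 and Cacng7 lower, and Cacng5 was not called.

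Vit encodes vitrin, an extracellular matrix protein with LCCL and von Willebrand A domains. The gene lies on chromosome 17, plus strand, at 78508064 to 78627408. It was read at 1.88 and 2.29 TPM, from 88 and 115 counts. Replicate 2 was the higher by 0.26 (log2), with a counting interval of -0.16 to 0.68, and the exact binomial test did not call it (adjusted p = 0.46). Under the spike-in scale it was called, at 0.52 (adjusted p = 0.021, exact binomial test), where the median gene stood at 0.27. Vit-201 led with 84.4% and 88.2% of TPM. Vit-202 held 15.6% and 11.8%, while the alignment-free table gave it 0 and 13.1%. In that table a retained-intron transcript, Vit-203, took 12.3% in replicate 1 from 2.25 counts.

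Map3k15 encodes the kinase ASK3, of the stress-activated ASK family that feeds the JNK and p38 pathways. It lies on the X chromosome, plus strand, at 159988433 to 160123351, and has 1 annotated transcript. It was read at 1.03 and 1.13 TPM, from 79 and 93 counts. The difference of 0.11 (log2) lay inside a counting interval of -0.34 to 0.56 (adjusted p = 0.82, exact binomial test). Its exons share 603 of 4348 bases with Pdha1 on the opposite strand, a gene with 4506 and 5220 counts, and whether the counting used strand is not stated, so part of its reads could belong to Pdha1, which was not tested. Its relatives Map3k5 (ASK1) and Map3k6 (ASK2) stood above it at 13.2 ± 3.22 and 2.78 ± 0.226 TPM, and 0 of the 3 kinases was called by the exact binomial test (0 of 3 also had an unadjusted p below 0.05).

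Cpne4 was the most abundant of the 6 CA3 members. It encodes a copine, a cytosolic protein with paired C2 domains that binds phospholipid membranes when calcium rises. The gene covers 104547286 to 105034544 on the plus strand of chromosome 9. It was read with 2016 and 2673 counts, or 37.7 and 54.8 TPM. Replicate 2 was the higher in both units, but by different amounts, since the log2 ratio was 0.28 in scaled counts (interval 0.19 to 0.36, adjusted p = 1.8e-09, exact binomial test) and 0.54 in TPM.

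The gap between units sat in Cpne4-204, a transcript of 549 bases whose annotated 3′ end is incomplete. It carried 75.6 and 175 counts, which is 3.75% and 6.53% of the gene's counts, yet 24.7% and 36.6% of its TPM, because TPM divides by length. Cpne4-201, with 16 exons and 3959 bases, held 89.2% and 83.3% of counts and 68.2% and 54.4% of TPM. Over transcripts with complete ends alone, Cpne4 stood at 28.0 and 34.1 TPM, and the log2 ratio of 0.29 was close to that of the counts. The alignment-free table gave Cpne4-204 18.5% and 32.1% of TPM and gave a further 22.7% and 15.7% to Cpne4-206, an incomplete fragment that the other table left at 0. Cpne4-204 starts upstream of Cpne4-201, and the junctions of their first exons are shown with the first exon in capitals, since the next exon is shared (GENCODE M21 transcripts).
Cpne4-201: GGCTGGCACACCCAGaatgaagaagatgag
Cpne4-204: GAGAGTTGGGAGGAGaatgaagaagatgag

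Among the copines, Cpne6 was highest at 246 ± 39.9 TPM and Cpne7 followed at 122 ± 14.5 TPM. Cpne4 came next at 46.2 ± 12.1 TPM, or 31.1 ± 4.33 TPM over complete transcripts, above Cpne2 at 20.1 ± 0.841 and Cpne5 at 19.4 ± 10.8 TPM. Cpne1, Cpne8, Cpne9 and Cpne3 were lower, down to 7.64 TPM for Cpne3. Of the 9 genes, Cpne4, Cpne6 and Cpne7 were called higher in replicate 2 and Cpne5 was called lower, with 27.0 and 11.8 TPM and a log2 ratio of -1.14.

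Bok encodes a BCL-2 family protein related to the pore formers Bax and Bak, and it binds inositol trisphosphate receptors on the endoplasmic reticulum. The gene lies on the plus strand of chromosome 1 at 93685660 to 93695764. It was read with 370 and 588 counts, or 15.9 and 23.4 TPM. Replicate 2 was the higher by 0.54 (log2; interval 0.35 to 0.73; adjusted p = 3.6e-07, exact binomial test), the widest called difference in that direction among the members. Bok-201 led with 90.5% and 91.6% of TPM in the alignment-based table. The alignment-free table gave it 65.4% and 96.2%, with 24.3% in replicate 1 assigned to the incomplete Bok-203 from 34.3 counts and 10.3% to the noncoding Bok-202 from 23.3 counts.

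Of the 9 genes in the list of BCL-2 proteins and inositol trisphosphate receptors, Bok was called higher in replicate 2 and Itpr1 and Bcl2 were called lower. Itpr1, the main neuronal receptor, was highest at 131 ± 10.9 TPM. Bcl2l1 (BCL-XL) stood at 62.3 ± 0.318, Bax at 32.3 ± 0.849 and Mcl1 at 28.6 ± 0.339 TPM, all above Bok at 19.7 ± 5.30 TPM. Itpr2, Bak1 and Bcl2 lay between 5.61 and 10.7 TPM, and Itpr3 was lowest at 1.95 ± 0.247 TPM. The log2 ratios of Bax, Bcl2l1 and Mcl1 were 0.00, -0.01 and -0.01.

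Nectin3 encodes an adhesion molecule of the immunoglobulin family that pairs across synaptic junctions with nectin-1 and is tied to actin by afadin. The gene lies on the minus strand of chromosome 16 at 46387706 to 46498525. It was read with 939 and 1187 counts, or 16.2 and 19.4 TPM. Replicate 2 was the higher by 0.21 (log2; interval 0.09 to 0.33; adjusted p = 0.0080, exact binomial test). Nectin3-201 led with 61.5% and 69.2% of TPM. The long form Nectin3-202, of 9116 bases, held 33.4% and 27.5% of counts but 11.8% and 9.63% of TPM, and Nectin3-203 held 10.6% and 9.88% of TPM. Nectin3-205 held 9.29% in replicate 1 and 2.84% in replicate 2, on 23.4 and 9.11 counts. The noncoding Nectin3-209 had reads in the alignment-free table alone, at 2.39% and 10.1% of TPM.

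In the list of nectins and partners, Cadm3 (SynCAM3) was highest at 150 ± 8.36 TPM and Nectin2 lowest at 3.17 ± 0.212 TPM. Between them were Cadm1 at 126 ± 1.36, Cadm2 at 82.0 ± 2.76, Afdn (afadin) at 44.8 ± 3.18 and Nectin1 at 25.9 ± 0.177 TPM, then Nectin3 at 17.8 ± 2.23 and Nectin4 at 3.27 ± 0.170 TPM. Nectin3, Cadm2 and Cadm3 were called higher in replicate 2.

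Trps1 encodes a transcriptional repressor with a GATA-type zinc finger. It lies on the minus strand of chromosome 15 at 50654752 to 50890463. It was read with 1940 and 2184 counts, or 21.6 and 19.8 TPM. Its direction depended on the unit, since scaled counts gave a log2 ratio of 0.04 (interval -0.05 to 0.13; adjusted p = 0.59, exact binomial test) and TPM gave -0.13. The incomplete Trps1-208, of 887 bases, held 24.8% and 12.5% of TPM on 76.4 and 37.5 counts. Over complete transcripts Trps1 stood at 16.2 and 17.3 TPM, with a log2 ratio of 0.09. With the spike-in scale it was called at 0.31 (adjusted p = 3.6e-11, exact binomial test), where the median gene stood at 0.27.

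Trps1 had no single dominant transcript. Trps1-202 led with 31.7% and 33.9% of TPM, and Trps1-201, with the same coding sequence, held 20.2% and 25.5%. Trps1-203 held 12.9% and 11.3% and Trps1-205 held 10.4% and 5.74%. Trps1-204 was at 0 in replicate 1 and 8.64% in replicate 2, while the alignment-free table gave it 2.05% and 13.9%. In the list of GATA-type factors and their cofactors, Gatad2b was highest at 45.3 ± 4.62 TPM. Gatad1 (41.4 ± 0.813 TPM) also stood above Trps1 at 20.7 ± 1.27 TPM. The cofactors Zfpm1 and Zfpm2, with Gatad2a and Gata2, lay between 2.75 and 19.1 TPM. Gata1, Gata3, Gata4 and Gata5 were tied as lowest, with 0 counts in both libraries.

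Coch encodes cochlin, a secreted matrix protein with an LCCL domain and von Willebrand A domains, best known from the inner ear. The gene lies on the plus strand of chromosome 12 at 51593341 to 51605771. It was read with 107 and 72 counts, or 2.72 and 1.54 TPM. Replicate 1 was the higher, with a log2 ratio of -0.70 (interval -1.15 to -0.26; adjusted p = 0.013, exact binomial test), and Coch was the sole CA3 member called in that direction. On the spike-in scale the ratio was -0.43 (adjusted p = 0.082, exact binomial test). The meningeal fibroblast list was lower in replicate 2 with a median of -0.64 and 5 of 7 called, and the choroid plexus list with a median of -2.57 and 8 of 8 called. Their part in the difference of Coch was not tested.

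The tables disagreed on the leading Coch transcript. The alignment-based table gave Coch-201 56.9% and 76.0% and Coch-202 30.4% and 24.1% of TPM. The alignment-free table gave Coch-202 58.7% and 100% and Coch-201 32.0% and 0. Both transcripts share a coding sequence of 1659 bases, so the disagreement does not touch the encoded protein. The retained-intron Coch-203 held 12.7% in replicate 1 from 2.00 counts.

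Iyd encodes iodotyrosine deiodinase, the thyroid enzyme that recovers iodide from iodotyrosines. It lies on the plus strand of chromosome 10 at 3540240 to 3554877. It had the fewest reads, with 22 and 41 counts or 1.16 and 1.90 TPM. Its log2 ratio of 0.76 was the widest of the members in that direction, but the counting interval ran from -0.01 to 1.59 and the test did not call it (adjusted p = 0.15, exact binomial test). The spike-in scale gave 1.02 (adjusted p = 0.014, exact binomial test). The coding Iyd-201 and the retained-intron Iyd-202 split the gene at 49.3% and 50.7% of TPM in replicate 1 and at 57.5% and 42.5% in replicate 2. By counts Iyd-201 led in both tables and libraries, from 59.2% to 76.1%. The alignment-free table gave Iyd-202 65.2% and 55.0% of TPM.

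In the list of thyroid hormone handling, Iyd was the lowest gene with reads, at 1.53 ± 0.523 TPM. Thra, the main thyroid hormone receptor of brain, was highest at 402 ± 18.5 TPM, and Crym, a cytosolic thyroid hormone binder, stood at 99.4 ± 9.91 TPM. Thrb, the transporter gene Slco1c1 and the activating deiodinase Dio2 lay between 16.3 and 21.9 TPM, and the inactivating Dio3 was at 2.38 ± 0.615 TPM. Dio1 had 0 counts in both libraries. Thra and Crym were called higher in replicate 2.

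**Figure D2:**
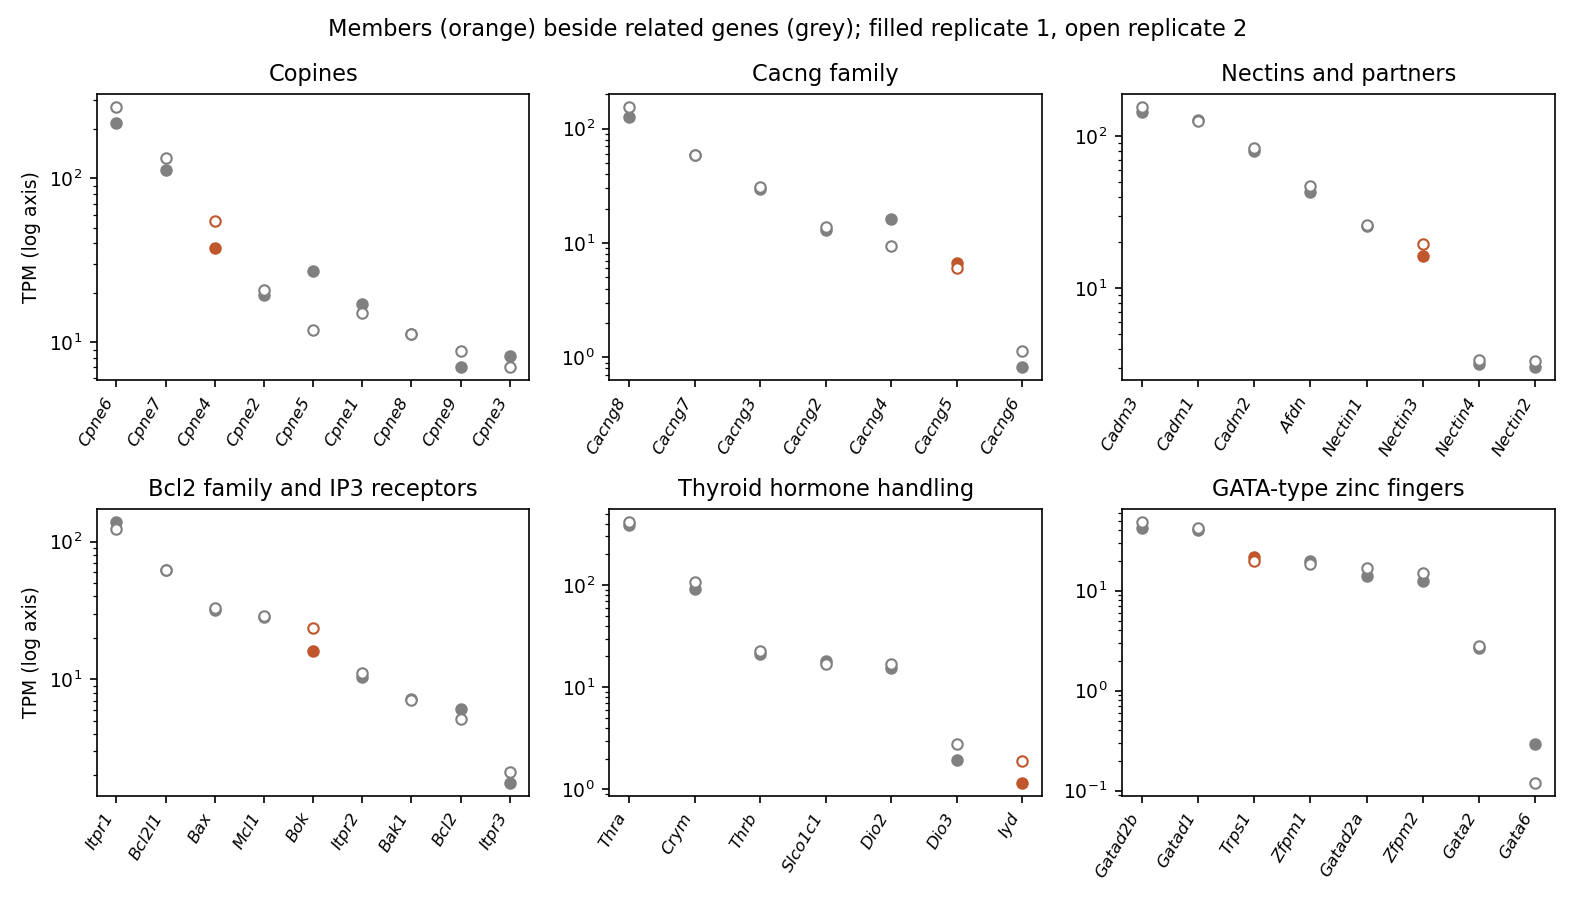
TPM on log axes of 6 lists that hold a member (orange) and its relatives or partners (grey). Filled points are replicate 1 and open points replicate 2, and genes at 0 in both libraries are not drawn. Cpne4 stands below Cpne6 and Cpne7 among the copines, Cacng5 stands at 6.39 TPM below Cacng8 at 141 TPM, and Iyd is the lowest drawn gene of its list.

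Read together, 5 of the 10 members differed between the libraries beyond counting error, against 18.4% of the 16971 genes tested. Bok, Nectin3 and Cpne4 were higher in replicate 2, against 9.29% of genes called in that direction, and Pcp4 and Coch were lower, against 9.13%. At an unadjusted p below 0.05 by the exact binomial test there were 6 members and 5016 genes. On the spike-in scale 59.1% of genes were called, and the 6 called members, Iyd, Nectin3, Vit, Bok, Cpne4 and Trps1, were all higher in replicate 2. The median absolute log2 ratio was 0.27 over the members and 0.12 over all tested genes. By absolute log2 ratio among all tested genes, the called members lay at percentiles 70.3 (Nectin3), 79.0 (Cpne4), 84.3 (Pcp4), 92.2 (Bok) and 95.2 (Coch). Iyd, which was not called, lay at percentile 96.0. A call depends on depth as well as on the ratio, and the members ran from 22 counts for Iyd to 2673 for Cpne4.

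The 6 CA3 members had a median log2 ratio of 0.24, with 5 of 6 positive, and the 4 CA2 members one of -0.04, with 2 of 4 positive. The median over all tested genes was 0.00. The difference between the fields was not tested. On the spike-in scale the CA2 median was 0.23, above 0, where the median over all tested genes was 0.27. Other hippocampal and general excitatory lists had medians above 0 as well. The CA1 list had a median of 0.15 with 6 of 8 called higher. The dentate granule list had 0.31 with 6 of 8, and the excitatory neuron list 0.26 with 5 of 6. Over all tested genes 9.29% were called higher, and the lists differ in depth, on which a call also depends. The inhibitory neuron list had a median of 0.06, with 1 of 8 called higher and 2 lower. The cortex list, of markers of cortical layers, lay below 0 at -0.12, with 5 of 6 genes negative. The glial and vascular lists had medians of -0.06 for astrocytes, -0.04 for oligodendrocytes, -0.08 for microglia and -0.18 for endothelial cells. Their calls, 2 of 6 for oligodendrocytes and 3 of 6 for each of the others, were all lower in replicate 2. The part of these lists in the values of the CA3 members was not tested.

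**Figure D3:**
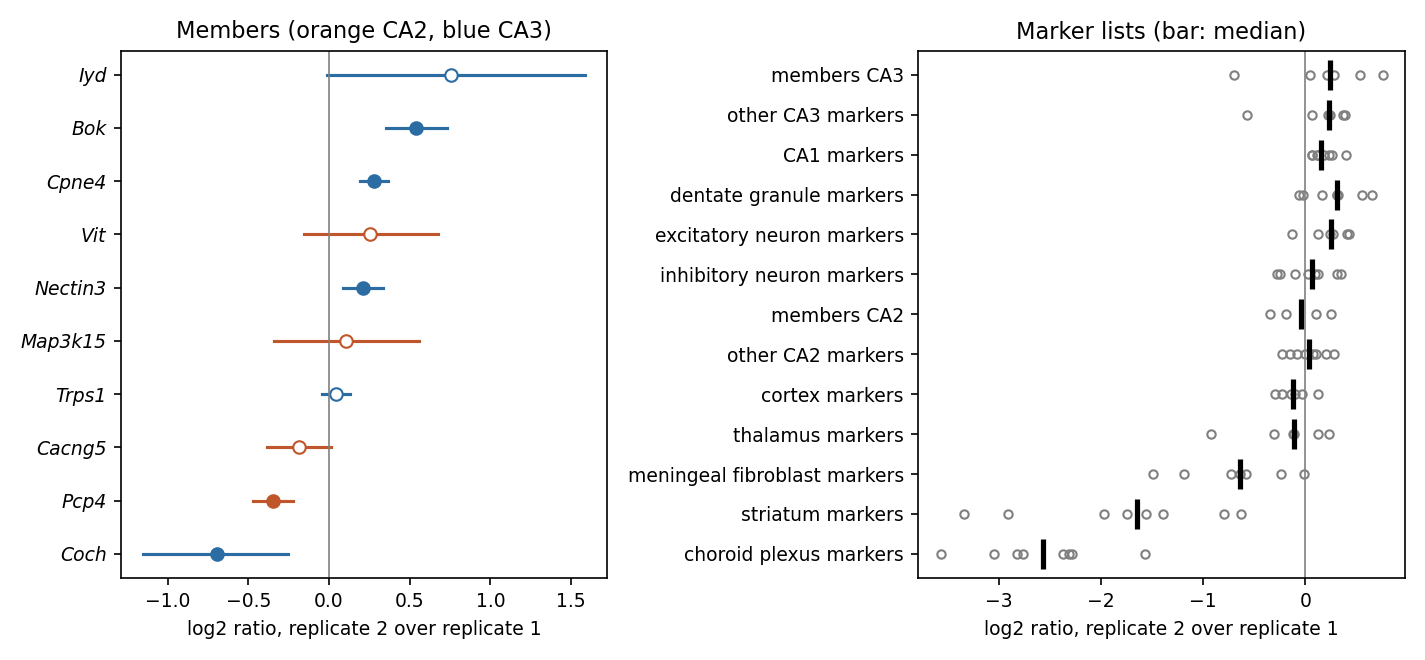
Log2 ratio of replicate 2 over replicate 1 in TMM-scaled counts. On the left each member has its 95% counting interval and a filled point where the adjusted p is below 0.05; on the right each circle is a gene of a marker list and the bar its median. Bok, Cpne4 and Nectin3 lie right of 0 and Pcp4 and Coch left of it, and the striatum and choroid plexus lists have medians of -1.65 and -2.57.

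Further markers of the same fields were read from fixed lists. The other CA3 markers had a median log2 ratio of 0.23. Among them, 4 of 6 were called higher in replicate 2, against 9.29% of all tested genes. These were the kainate receptor subunit gene Grik4 (18.1 and 21.6 TPM, log2 ratio 0.25), the cadherin gene Cdh24 (5.76 and 7.72 TPM, 0.39), Dkk3 of the dickkopf family of secreted proteins (95.6 and 114 TPM, 0.22) and the postsynaptic scaffold gene Homer3 (26.5 and 35.5 TPM, 0.37). The zinc finger gene Plagl1 was not called, at 10.0 and 9.88 TPM. Loxl1, a lysyl oxidase of the extracellular matrix, had a log2 ratio of -0.57 at 1.74 and 1.19 TPM (adjusted p = 0.053, exact binomial test).

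Among the other CA2 markers, 8 of 9 could be tested, with a median log2 ratio of 0.03 and 4 of 8 positive. Amigo2, an adhesion protein, and Nr3c2, the mineralocorticoid receptor, were called higher in replicate 2 at log2 ratios of 0.28 and 0.20, and the phosphatase gene Ptpn5 (STEP) was called lower at -0.23. The signalling scaffold Rgs14 stood at 39.2 and 43.2 TPM and the calcium-binding Necab2 at 44.2 and 46.5 TPM, without a call. Sox5 stood at 18.0 ± 1.19, Fgf2 at 4.42 ± 0.0424 and Ntf3 at 4.14 ± 0.0990 TPM, also without a call. The vasopressin receptor gene Avpr1b, a selective CA2 marker, was too low to test, with 3 and 9 counts.

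**Figure D4:**
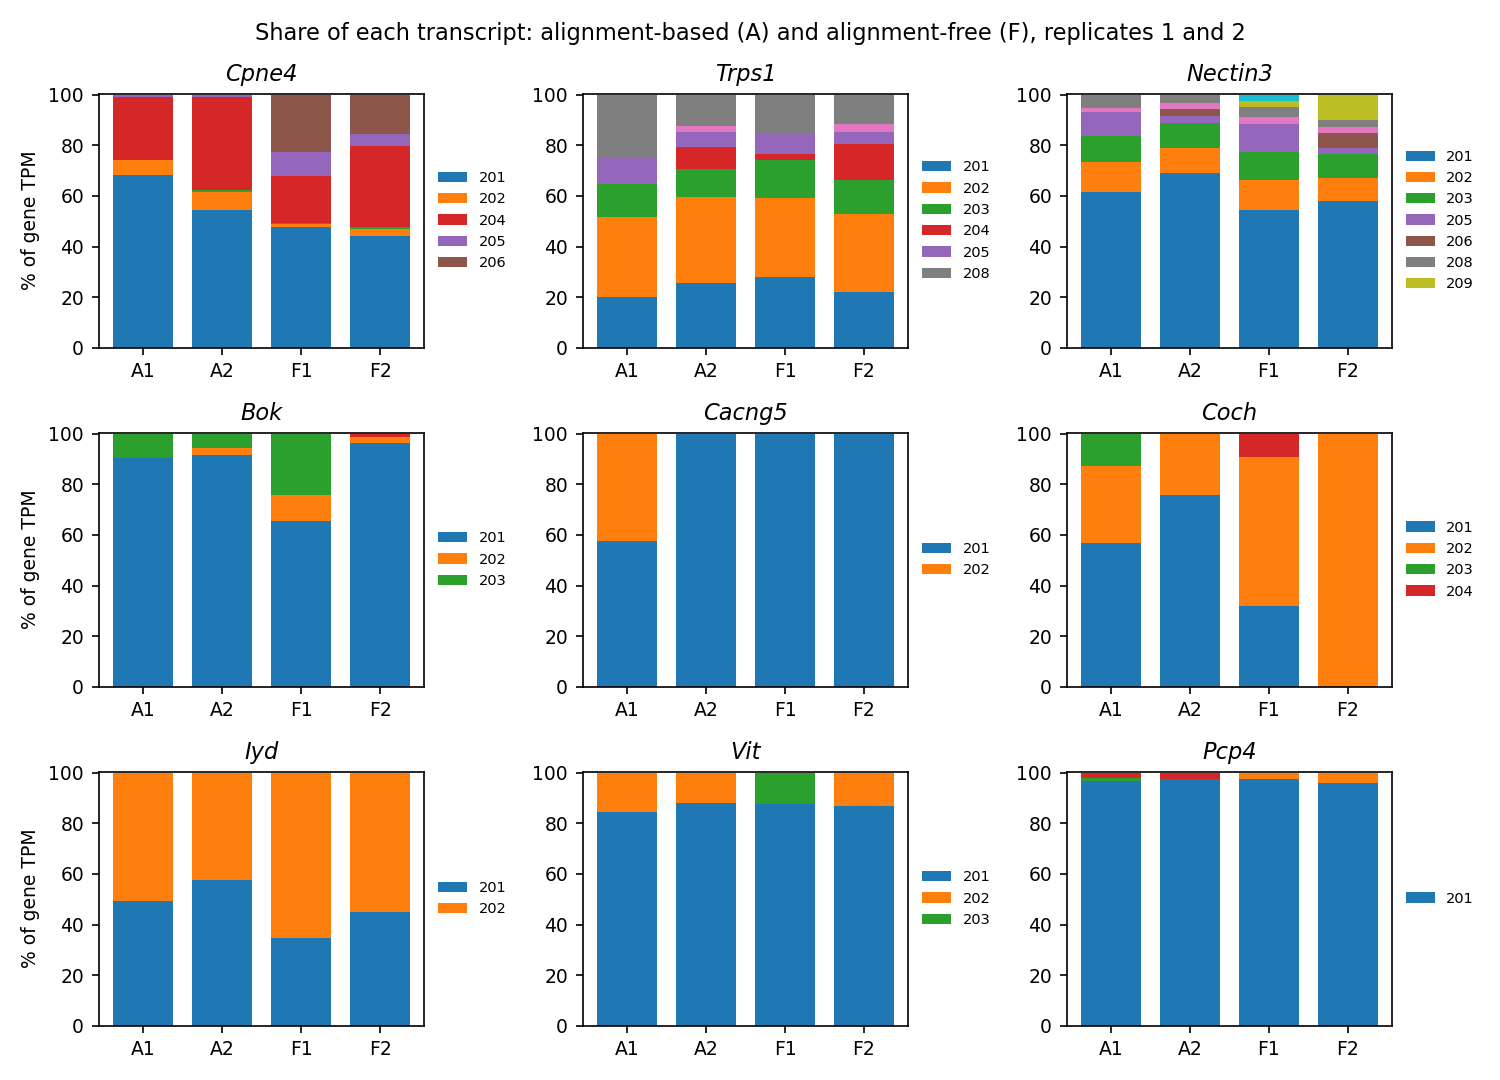
Share of each gene's TPM held by its transcripts (colours, named by their annotation number; those under 5% in all bars are not named) in the alignment-based table (A1 and A2 for replicates 1 and 2) and the alignment-free table (F1 and F2). Pcp4 is nearly all Pcp4-201 in the 4 bars, Cacng5-202 appears in A1 at 42.5% and in no other bar, and Coch changes its leading transcript between tables.

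The 10 members have 46 annotated transcripts, 36 of them coding, and 9 members have more than 1. In 7 of these 9 the same transcript led in both tables and both libraries, against 71.3% of multi-transcript genes at or above 1 TPM, so the members' share was near that of other genes. The exceptions were Coch and Iyd, and by counts Coch alone. The gene totals of the tables lay closer together than their transcripts. The alignment-free count over the alignment-based count ran from 1.05 for Iyd to 1.22 for Coch (means of 2 libraries). The median of the members was 1.13. The medians over 12092 and 12089 protein-coding genes in replicates 1 and 2 were 1.15 and 1.14. Genes below 100 alignment-based counts in a library were left out of these 2 medians but not of the members' values. Iyd and Map3k15 lay below that minimum in both libraries, Vit in replicate 1 and Coch in replicate 2.

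Shared exons touched 2 more members. Pcp4 shares 243 of 1026 exon bases with a same-strand Igsf5 gene model, which drew 0 and 3.63 counts, and Trps1 shares 25 bases with Mir1907, which drew 0 in both libraries.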

How the data were processed

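Total RNA from tissue labelled layer of hippocampus was sequenced in 2 libraries of 1 group. Per the file headers and labels, the authors deposited for each library a gene table and a transcript table with expected counts (estimated reads), TPM and FPKM from alignments, and a transcript table with estimated counts and TPM made without alignment, on mm10 with GENCODE M21. The alignment-based transcript table also holds the deposited share of each transcript in its gene as a percent. The gene table's coefficient of quartile variation, a ratio deposited by the authors, was read and not used for a result. Names of the aligner and of either quantifier: not given in the sources used here.

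Expected counts were rounded to whole numbers and scaled by TMM (edgeR 4.0.16, R 4.3.3). Genes with a mean count of at least 20 were compared between the 2 libraries by an exact two-sided conditional binomial test (scipy 1.17.1) with Benjamini-Hochberg adjustment over all 16971 genes at 0.05. Log2 ratios used a prior count of 0.5, and intervals cover counting error only. With 1 group there was no test of a condition. Levels are the deposited TPM, with SD over 2 libraries. The test was tried on data simulated with counting error alone. That trial cannot show how the test behaves where libraries vary beyond counting error, and it is no check of the calls.

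All 10 members are named, with every transcript at 10% or more of TPM in any table, all other CA2 and CA3 markers, and, per family list, up to 8 relatives at a TPM of at least 1 with the highest and lowest gene, ties included. The members and lists were chosen with earlier results of these data known. Alternatives were other scalings (DESeq2 1.42.0 size factors, library size, spike-ins), other count minimums and prior counts, alignment-free and FPKM values, and leaving out a library or a member. Amino acid sequences were not used here. A gene of the family lists is not reported here.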

Additional observations from a re-analysis of the deposited data

How the results depend on the processing

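No paired analysis was possible because there is 1 group, so no replicate number is shared between groups. The 5 members called, Bok, Nectin3, Cpne4, Pcp4 and Coch, were the same 5 under DESeq2 size factors, library size, a count minimum of 5, no minimum and alignment-free counts; the prior count does not enter the test. The spike-in scale called 6 members, all higher in replicate 2, and lost Pcp4 and Coch. It also moved the median log2 ratio of the CA3 members from 0.24 to 0.51 and that of the CA2 members from -0.04 to 0.23. On the spike-in scale the median over all tested genes was 0.27. The ratio of deposited TPM gave 0.40 for the CA3 members. At a TPM of at least 5 in both libraries, 6 of 10 members remained. At least 1 in both libraries was reached by 9 members in alignment-free TPM and by 8 in FPKM, a unit in which every member had a lower value. The CA3 minus CA2 difference of 2.29 (log2 TPM) became 1.98 with a pseudocount of 1, 0.66 with the mean over members, 3.10 without Pcp4 or without Cacng5, and 1.48 without Map3k15 or without Vit. It reversed to -0.74 with arithmetic mean TPM and to -0.35 over the other CA2 and CA3 markers; the cause was not tested. These 2 alternatives and leaving members out were chosen after seeing the data, as was the restriction to transcripts with complete ends. No called log2 ratio of a member changed sign under these settings. Of 60 settings for member levels, 46 moved by less than the spread between libraries and 14 by more, most of these in FPKM. FPKM differs from TPM by the same factor for all genes of a library, so its moves reflect the unit and are no check. Many of the 46 were fixed in advance and are no check. Leaving out 1 of 2 libraries cannot move a mean by more than its SD. Map3k15, Vit, Cacng5, Iyd and Coch have no incomplete transcripts, so the restriction to complete ones removed nothing. Of 60 settings for member ratios, 53 gave the same result. These include the settings with a prior count of 2, which could not change a call and are no check. The other 7 were the spike-in values of Pcp4, Coch, Vit, Iyd and Trps1, which changed side of the threshold, and the TPM ratios of Cpne4 (0.54) and Trps1 (-0.13). With 22 to 107 counts in replicate 1, Iyd, Map3k15, Vit and Coch are limited by depth, and the 2 libraries limit every SD.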
